A study of Mus musculus with 18 samples.

Results

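The early cAMP-response transcription factors examined here were 9 genes taken by symbol from the deposited count table of 17672 genes. They were the orphan nuclear receptors Nr4a1, Nr4a2 and Nr4a3, the bZIP factors Crem and Creb1, the AP-1 subunits Fos, Fosb and Fosl2, and the zinc-finger factor Egr1. RNA came from differentiated cells of an immortalised mouse brown preadipocyte line, all of which carried a stable lentiviral shRNA to Abhd5 and an mCherry-tagged, shRNA-resistant ABHD5 in pINDUCER20 that doxycycline (Dox) switches on. ABHD5 is the co-activator of the lipase ATGL, which starts the breakdown of stored fat. Cells without Dox have the genotype ABHD5 KD in the labels, and cells given 1 µg/ml Dox the genotype WT. Dox was given for 24 to 48 h by the labels and for 24 h by the study's figure legend for this experiment. Cells of each state received for 3 h either the vehicle DMSO, 10 nM of the β-adrenergic agonist isoproterenol (ISO), or 20 µM of the ABHD5 ligand SR-3420. This gave 6 groups of 3 libraries. Every group therefore shared the shRNA, the construct and the differentiation protocol with indomethacin. Cells called WT held both a knocked-down endogenous gene and an inducible transgene. No group without shRNA or without the construct was included in the 18 libraries, so an effect of Dox itself and an effect of the protein it induces cannot be told apart.

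In brown adipocytes noradrenaline acts through β-adrenergic receptors to raise cAMP, which activates protein kinase A. The kinase phosphorylates CREB on promoters that hold the cAMP-response element, and CREB then recruits coactivators of the CBP and CRTC families. The first genes to respond are themselves transcription factors. NR4A receptors bind DNA without a known hormone, CREM gives rise to the repressor ICER that shuts the response down, and FOS proteins pair with JUN proteins to form AP-1. EGR1 is best known as a target of the growth factor, MAP kinase and serum response factor route. Such genes are commonly induced within minutes and many return to their starting level within hours, so the 3 h samples describe a late point of the response.

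Which reads the deposited counts hold could not be settled. The study's methods name counting over whole genes. The counted length in the table, however, lay within 10% of the gene span less its annotated exons for 69.0% of 16566 genes and within 10% of the exon length for 2.47%. Among the 9 factors this held for Nr4a1, Crem and Egr1, whereas for Nr4a2, Nr4a3, Creb1, Fos, Fosb and Fosl2 the counted length was off that value by more. The counts are therefore given as deposited, as levels over the counted length of each gene, and neither mature mRNA nor unspliced RNA can be read from them alone. In bulk RNA of this kind, fewer cells of a type and less RNA per cell cannot be told apart. Library totals ran from 689910 to 1956565 counts with a median of 1145729, and 10178 genes held enough counts to be tested. The library SR-3420 with Dox replicate 1 stood apart, with 35.6% of its counts in its 10 most counted genes against 16.3% to 26.5% in the other libraries, and log2 changes of the factors that use it are also given without it. Abhd5 was at 53, 41 and 54 counts in the DMSO libraries without Dox and at 1211, 630 and 431 in those with Dox, in the direction of the labels. Whether the construct holds intron sequence is not given in the sources used here, so the share of the Abhd5 counts that came from it is unknown. Abhd5 was also higher with ISO than with DMSO in cells without Dox, at 149.2 ± 21.9 against 52.6 ± 4.71 CPM (n = 3, SD; log2 change 1.51, edgeR adjusted p 3.34e-07), so its level in the knockdown state differed between treatments. Among adipocyte markers, Adipoq, Pparg, Plin1, Cidec and Lpl had at least 176 counts in every library, and Fabp4, counted over only 73 bases, had 9 to 250. Of the brown adipocyte markers, Cidea, Prdm16, Ebf2, Cox7a1 and Ppara (4 to 153 counts) were counted in every library. Ucp1 ranged from 0 to 347 counts and Elovl3 from 0 to 8, and Dio2 was at 0 in all. The fibroblast genes Col1a1 (180 to 583 counts), Col3a1 (222 to 673), Pdgfrb (51 to 267), Pdgfra (17 to 59) and Ly6a (2 to 40) were also present. Others of that list had few or no counts, namely Dlk1 (0 to 12), Dcn (0 to 5), Cd34 (0 to 2) and Thy1 (0 to 1). Of 6 macrophage genes Emr1, Csf1r, Ptprc, Itgam and Lyz2 never exceeded 5 counts and Cd68 ranged from 3 to 32 counts.

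Of the 9 factors, 7 had enough counts for the test. Fos (1 to 12 counts per library) and Fosb (0 to 2 counts) did not, and their counts are given below. The limit, 10 counts at the median library size, equals 8.73 CPM on library totals. Nr4a2 and Nr4a3 reached it only in libraries treated with ISO, so a difference was a condition of their being tested. With Dox, Nr4a2 did so in 1 of 3 ISO libraries. Egr1 reached it in 6 DMSO, 5 SR-3420 and 0 ISO libraries, so it was tested only through libraries without ISO, where it is high. The length available for counting differed widely between the genes. It was 678 bases for Egr1, 1118 for Fosb and 1276 for Fos, and 30188 for Nr4a3, 53186 for Creb1 and 56746 for Crem, so levels of different genes were ordered per kilobase, and shares or ratios of CPM between genes carry these lengths.

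The sequences just upstream of the start sites that the table gives are shown for the NR4A genes, all of which rose with ISO, and for Fos, whose promoter is the classical example of a cAMP-response element (CRE) and which had few counts. They were read from the mm9 genome, 250 bases each, and are written 5′ to 3′ on the strand of the gene, ending at the base before the start. Capitals mark the letters TGACG or their reverse complement, the core that CREB binds, and in Nr4a3 the AP-1 motif TGANTCA.
Nr4a1, chr15:101097027-101097276, plus strand: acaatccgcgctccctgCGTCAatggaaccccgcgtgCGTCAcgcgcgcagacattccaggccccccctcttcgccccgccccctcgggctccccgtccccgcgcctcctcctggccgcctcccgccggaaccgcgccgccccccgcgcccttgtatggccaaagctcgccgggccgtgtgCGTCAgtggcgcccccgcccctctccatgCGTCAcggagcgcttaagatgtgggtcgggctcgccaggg
Nr4a2, chr2:56976415-56976664, minus strand: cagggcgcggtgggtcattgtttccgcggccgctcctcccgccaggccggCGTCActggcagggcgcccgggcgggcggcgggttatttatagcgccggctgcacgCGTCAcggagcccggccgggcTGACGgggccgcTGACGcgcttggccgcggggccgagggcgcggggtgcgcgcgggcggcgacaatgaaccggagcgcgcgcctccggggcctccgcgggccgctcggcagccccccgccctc
Nr4a3, chr4:48063870-48064119, plus strand: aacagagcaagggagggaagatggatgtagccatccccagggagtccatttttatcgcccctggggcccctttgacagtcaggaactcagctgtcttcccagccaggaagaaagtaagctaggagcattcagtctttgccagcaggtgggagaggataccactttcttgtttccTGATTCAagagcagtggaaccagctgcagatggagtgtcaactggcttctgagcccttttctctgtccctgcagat
Fos, chr12:86814601-86814850, plus strand: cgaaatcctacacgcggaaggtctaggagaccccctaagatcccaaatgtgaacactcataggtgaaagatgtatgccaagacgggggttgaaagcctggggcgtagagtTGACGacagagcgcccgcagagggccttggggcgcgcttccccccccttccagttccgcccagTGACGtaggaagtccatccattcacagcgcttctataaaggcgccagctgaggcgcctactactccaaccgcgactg
The upstream bases of Nr4a1 held TGACG 4 times, all on the minus strand of the gene, the nearest from -40 to -36 counted back from the start. Nr4a2 held it 4 times, in both orientations, and Fos 2 times, the nearer from -77 to -73. Nr4a3 held none and had an AP-1 motif from -76 to -70. The window searched ran from 250 bases before to 50 bases after the start, on both strands. In it TGACG was found at 5 of the 9 factors (Nr4a1, Nr4a2, Fos, Fosb and Egr1) against 26.4% of the 17672 promoters of the table. The full palindromic CRE, TGACGTCA, contains these letters and was found at 0 of the 9 factors and at 2.66% of all promoters. The AP-1 motif TGANTCA occurred at 1 factor and 6.25% of promoters, and the NR4A motif AAAGGTCA at 0 factors and 1.11% of promoters. The EGR motif GCGNGGGCG was found at 5 factors (Nr4a1, Nr4a2, Creb1, Fosb and Fosl2) and 9.39% of promoters, and the CArG box that serum response factor binds at 1 factor, Egr1, and 1.34% of promoters. These matches describe the letters in a window around the deposited start and are not measured binding. For Nr4a3, Crem and Egr1 the window did not match that of the RefSeq promoter table, and for Fos only the bases from 50 before to 10 after the start were found in it, so another start of these genes would give another window.

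The response to the agonist was assessed first. With ISO 5 of the 7 tested factors rose and Egr1 fell in cells without Dox, and with Dox the same 5 rose while Egr1 and Creb1 fell. Calls were made with edgeR's quasi-likelihood test over all 10178 genes, and needed an adjusted p no higher than 0.05 together with a log2 fold change no smaller than 1 in either direction (the fold change limit). By this rule 6 of 7 factors were called without Dox and 7 of 7 with Dox. Nr4a2 and Nr4a3 were tested only because they are high with ISO, and Egr1 only because it is high without ISO. Of the other factors, Nr4a1, Crem and Fosl2 were called higher without Dox and Creb1 was not called. There 10.9% of all tested genes were called (5.81% higher and 5.08% lower). With Dox, Nr4a1, Crem and Fosl2 were called higher and Creb1 lower, where 13.1% of all tested genes were called (6.22% higher and 6.89% lower). In each of these calls the 3 ISO libraries lay wholly above or wholly below the 3 DMSO libraries, as they did upward for 20% and downward for 19.8% of all tested genes without Dox (21.3% and 21.4% with Dox). The median log2 change over all tested genes was -0.01 without Dox and -0.02 with Dox.

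**Figure D1:**
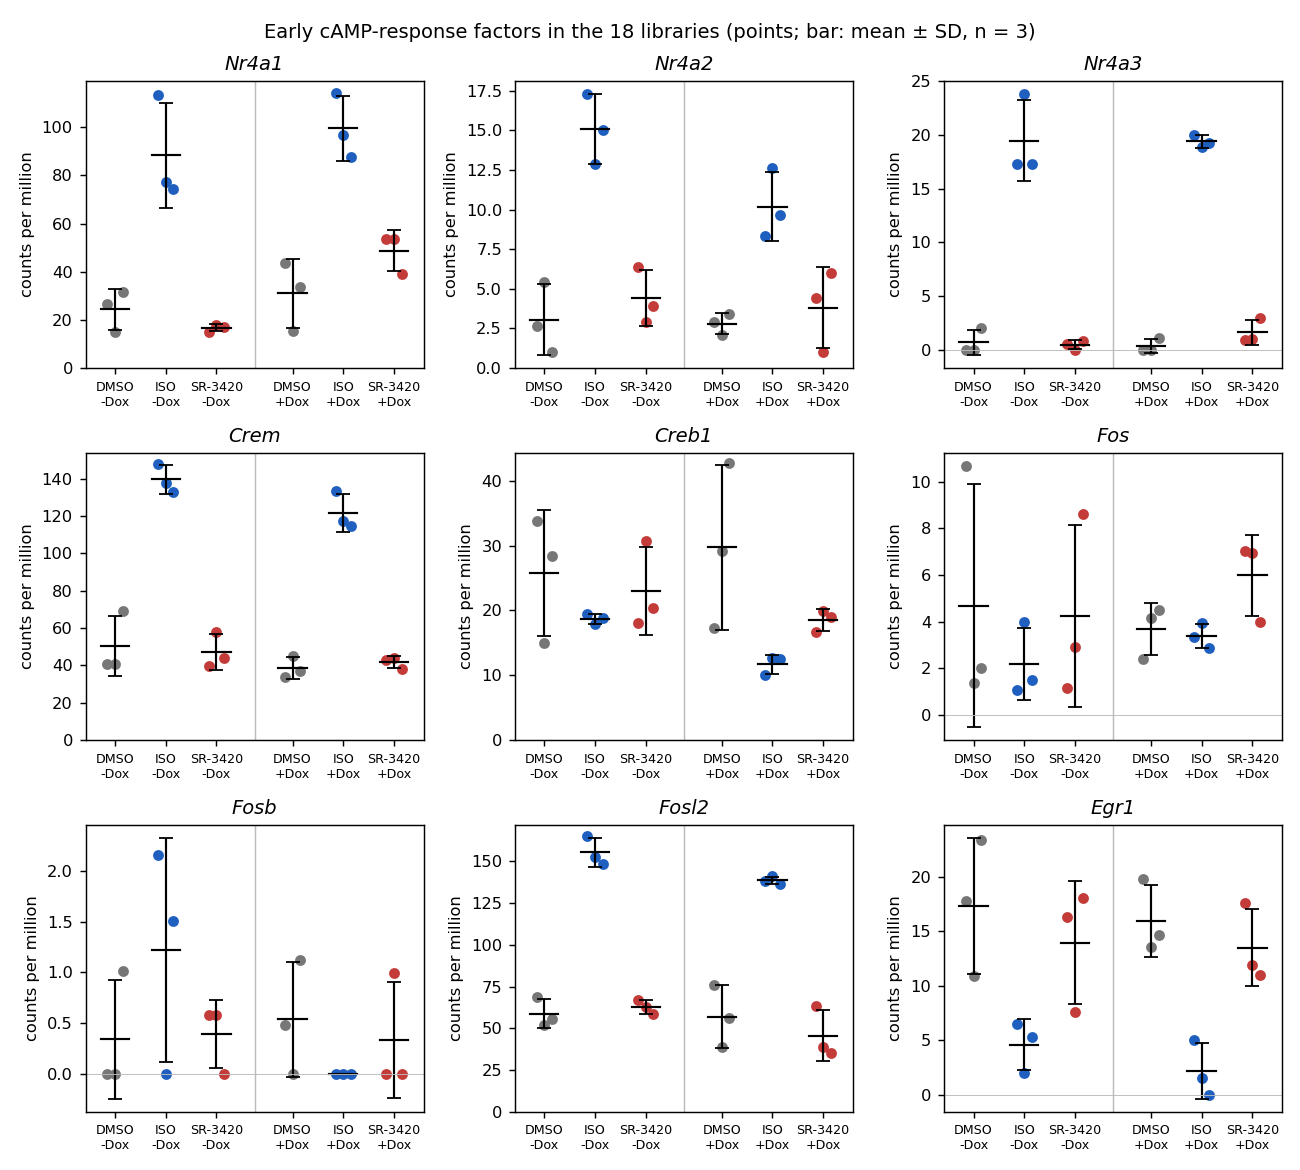
Counts scaled to library size (CPM, vertical axes, linear and different for each gene) of the 9 factors in the 18 libraries, as points by treatment without (-Dox) and with Dox (+Dox), with the mean and SD of 3 libraries. For Nr4a1, Nr4a2, Nr4a3, Crem and Fosl2 the ISO points lie above all DMSO and SR-3420 points of the same Dox state, for Egr1 they lie below them, and Fos and Fosb stay at or under 12 counts.

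Nr4a1 (NM_010444, chromosome 15, 101097277 to 101105225 on mm9, plus strand) encodes NUR77, an orphan receptor of the NR4A family that is induced by cAMP in many tissues. It gave 30, 11 and 31 counts in DMSO and 105, 78 and 99 counts with ISO without Dox, and 91, 15 and 30 counts in DMSO and 137, 123 and 91 counts with ISO with Dox. Normalised to library size, it rose from 24.4 ± 8.49 to 88.4 ± 21.8 CPM (n = 3, SD) without Dox and from 31.0 ± 14.3 to 99.6 ± 13.5 CPM (n = 3, SD) with Dox. The groups did not overlap in CPM, although DMSO with Dox replicate 1, the deepest library, held as many raw counts as the lowest ISO library. The log2 change was 1.80 (SE 0.26, edgeR adjusted p 6.15e-06) without Dox and 1.59 (SE 0.23, edgeR adjusted p 4.62e-06) with Dox.

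Nr4a2 (NM_001139509, chromosome 2, 56959637 to 56976414, minus strand) encodes NURR1, the family member known from dopaminergic neurons. It had 3, 4 and 1 counts in DMSO against 16, 13 and 20 with ISO without Dox, and 6, 2 and 3 counts against 10, 16 and 10 with Dox. The ISO libraries were the higher ones in both states, with no overlap in CPM. Its level went from 3.04 ± 2.24 to 15.1 ± 2.20 CPM (n = 3, SD) without Dox and from 2.78 ± 0.651 to 10.2 ± 2.19 CPM (n = 3, SD) with Dox. The log2 changes were 2.37 (SE 0.51, edgeR adjusted p 0.000735) and 1.83 (SE 0.50, edgeR adjusted p 0.00479). From the summed counts, 49 against 8 without Dox and 36 against 11 with Dox, the ratio was 5.33 (95% counting interval 2.51 to 13) and 3.66 (1.82 to 7.98). These intervals cover counting error only.

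Nr4a3 (NM_015743, chromosome 4, 48064120 to 48096224, plus strand), which encodes NOR1, showed the contrast most plainly. Its DMSO libraries had 0, 0 and 2 counts without Dox, against 0, 0 and 1 with it, and its ISO libraries 16, 24 and 23 counts without Dox, against 24, 24 and 20 with it. No library without ISO held more than 3 counts, and none with ISO held fewer than 16. In CPM the ISO groups stood at 19.5 ± 3.76 without Dox and 19.4 ± 0.565 with Dox (n = 3, SD). The ratio of summed counts to DMSO was 27.4 (95% counting interval 7.29 to 231, from 63 and 2 counts) without Dox and 76.1 (13.2 to 3050, from 68 and 1 counts) with Dox. The fitted log2 changes, 4.59 (SE 0.68, edgeR adjusted p 3.79e-06) and 5.75 (SE 0.75, edgeR adjusted p 1.67e-07), rest on these few DMSO counts. Without the DMSO library that held them (replicate 3 in each state) they became 7.55 and 7.56, and without DMSO replicate 1 they were 3.94 and 4.91.

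Summed over the 3 receptors, the NR4A level rose from 28.1 ± 7.13 to 122.9 ± 22.1 CPM (n = 3, SD) without Dox and from 34.2 ± 14.9 to 129.1 ± 13.1 CPM (n = 3, SD) with Dox. Nr4a1 supplied most of it in every group, 85.1% in DMSO and 71.4% with ISO without Dox. The share of Nr4a3 went from 1.96% to 16.2% without Dox and from 0.98% to 15.1% with Dox. These shares are of raw normalised counts and carry the different lengths of the genes, since the counted part of Nr4a3 was longer than that of Nr4a1.

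Crem (NM_001110859, chromosome 18, 3266352 to 3327589, minus strand) encodes CREM and, from an internal promoter, the repressor ICER. The counts cannot tell its isoforms apart. It had 46, 30 and 68 counts in DMSO and 137, 139 and 177 with ISO without Dox, and 70, 43 and 33 counts in DMSO and 160, 149 and 119 with ISO with Dox. Every ISO library lay above every DMSO library. The level rose from 50.2 ± 16.2 to 139.6 ± 7.75 CPM (n = 3, SD) without Dox, a log2 change of 1.46 (SE 0.18, edgeR adjusted p 4.47e-07). With Dox it rose from 38.5 ± 5.67 to 121.8 ± 10.2 CPM (n = 3, SD), a log2 change of 1.69 (SE 0.18, edgeR adjusted p 2.54e-08).

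Creb1 (NM_009952, chromosome 1, 64579378 to 64651122, plus strand) encodes CREB, the factor that protein kinase A activates by phosphorylation rather than by new transcription. It gave 38, 11 and 28 counts in DMSO and 18, 18 and 25 counts with ISO without Dox, where the groups overlapped. With Dox it gave 36, 28 and 38 counts in DMSO and 12, 16 and 13 counts with ISO, and all ISO libraries were lower. Its level was 25.7 ± 9.71 CPM in DMSO and 18.7 ± 0.806 CPM with ISO without Dox (n = 3, SD), a log2 change of -0.51 (95% interval -1.17 to 0.15, edgeR adjusted p 0.251) that did not pass. With Dox it fell from 29.7 ± 12.7 to 11.7 ± 1.48 CPM (n = 3, SD), a log2 change of -1.24 (SE 0.33, edgeR adjusted p 0.00489). That call rested on DMSO with Dox replicate 3, without which the log2 change was -0.89 and the edgeR adjusted p 0.0526. The ISO response of Creb1 with Dox differed from that without by -0.73 (95% interval -1.69 to 0.23, edgeR adjusted p 0.512). The ratio of Crem to Creb1 in CPM was 2.12 ± 0.803 in DMSO and 7.47 ± 0.343 with ISO without Dox, and 1.45 ± 0.543 in DMSO and 10.6 ± 2.37 with ISO with Dox (n = 3, SD), with no overlap between ISO and DMSO libraries.

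Among the AP-1 subunits, Fosl2 (NM_008037, chromosome 5, 32438845 to 32460212, plus strand), which encodes the longer-lived FOS protein FRA2, was well counted. It had 77, 38 and 55 counts in DMSO and 153, 154 and 198 with ISO without Dox, and 158, 37 and 50 counts in DMSO and 166, 179 and 142 with ISO with Dox. In CPM the ISO libraries (136.7 to 165.3 over both states) stood above all DMSO libraries (38.5 to 76.1). It rose from 58.7 ± 8.77 to 155.5 ± 8.72 CPM (n = 3, SD) without Dox, a log2 change of 1.39 (SE 0.19, edgeR adjusted p 2.43e-06). With Dox it rose from 56.9 ± 18.8 to 138.7 ± 2.17 CPM (n = 3, SD), a log2 change of 1.22 (SE 0.18, edgeR adjusted p 6.61e-06).

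Fos (NM_010234, chromosome 12, 86814851 to 86818219, plus strand), the prototype of the immediate early genes, was not tested for lack of counts. It gave 12, 1 and 2 counts in DMSO and 1, 4 and 2 with ISO without Dox, and 5, 4 and 4 counts in DMSO and 4, 5 and 3 with ISO with Dox. ISO and DMSO libraries overlapped in both states. The ratio of summed counts was 0.406 (95% counting interval 0.14 to 1.06) without Dox and 1.03 (0.431 to 2.46) with Dox. Fosb (NM_008036, chromosome 7, 19888045 to 19895394, minus strand), another early FOS protein, had 0, 0 and 1 counts in DMSO and 2, 0 and 2 with ISO without Dox, and 1, 0 and 1 counts in DMSO and 0, 0 and 0 with ISO with Dox. At 10 counts in all 18 libraries no difference of Fosb was detectable at this depth.

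Egr1 (NM_007913, chromosome 18, 35020861 to 35024610, plus strand) fell with ISO in both states, against the 5 factors that rose. It gave 20, 8 and 23 counts in DMSO and 6, 2 and 7 counts with ISO without Dox, and 41, 13 and 13 counts in DMSO and 6, 2 and 0 counts with ISO with Dox. All ISO libraries lay below all DMSO libraries. Its level fell from 17.3 ± 6.24 to 4.57 ± 2.33 CPM (n = 3, SD) without Dox, a log2 change of -1.93 (SE 0.50, edgeR adjusted p 0.00421). With Dox it fell from 16.0 ± 3.32 to 2.19 ± 2.56 CPM (n = 3, SD), a log2 change of -2.81 (SE 0.56, edgeR adjusted p 0.000203) that became -4.11 without ISO with Dox replicate 1. The ratio of summed counts was 0.256 (95% counting interval 0.134 to 0.463) without Dox and 0.134 (0.0555 to 0.279) with Dox. Egr1 was counted over 678 bases and overlaps the gene model Gm17507 on the other strand. The counting is not stated to use strand, so reads of that model cannot be told apart from those of Egr1.

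Several marker genes also moved with ISO. The summed level of the 6 adipocyte markers in the table ranged from 2300 to 2810 CPM in DMSO and from 3290 to 3490 CPM with ISO without Dox, where 0 of 6 were called and single markers went both ways (log2 change 0.85 for Lpl and -0.52 for Cidec). With Dox the sum ranged from 2710 to 3220 and from 5000 to 5180 CPM, and Fabp4 and Pparg were called higher. The sum of the 8 brown adipocyte markers ranged from 102 to 198 CPM in DMSO and 210 to 424 CPM with ISO without Dox, and from 177 to 225 and 417 to 812 CPM with Dox. Ucp1, which encodes the uncoupling protein of brown fat and reached the count limit only with ISO, and Prdm16 were called higher in both states, with a log2 change of 7.28 and 8.11 for Ucp1, and Cidea and Ppara with Dox as well. That of the 9 preadipocyte and fibroblast markers, of which Thy1, Cd34 and Dcn never exceeded 5 counts, ranged from 698 to 932 CPM in DMSO and 551 to 677 CPM with ISO without Dox, and from 774 to 1180 and 510 to 784 CPM with Dox. Without Dox Pdgfrb was called lower (log2 change -1.20) and Ly6a higher (3.29), and with Dox 0 of the 5 tested were called. Ly6a reached the count limit in 1 DMSO, 6 ISO and 0 SR-3420 libraries, so it too was tested only because it is high with ISO. The part of these marker genes in the responses of the factors was not tested.

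SR-3420, which binds ABHD5 and activates lipolysis without the agonist, was compared with DMSO next. Without Dox 0 of the 7 tested factors were called by edgeR, 0 had an unadjusted p under 0.05 and 0 were called by DESeq2, where 0.265% of all tested genes were called by edgeR. With Dox 0 of 7 were called, 1 (Nr4a1) had an unadjusted p under 0.05 and 0 were called by DESeq2, where 3.1% of all tested genes were called by edgeR. For all 9 factors the SR-3420 libraries overlapped the DMSO libraries in both states, as they did for most tested genes, since 7.79% lay wholly higher and 6.29% wholly lower without Dox (13.6% and 12.2% with Dox).

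**Figure D2:**
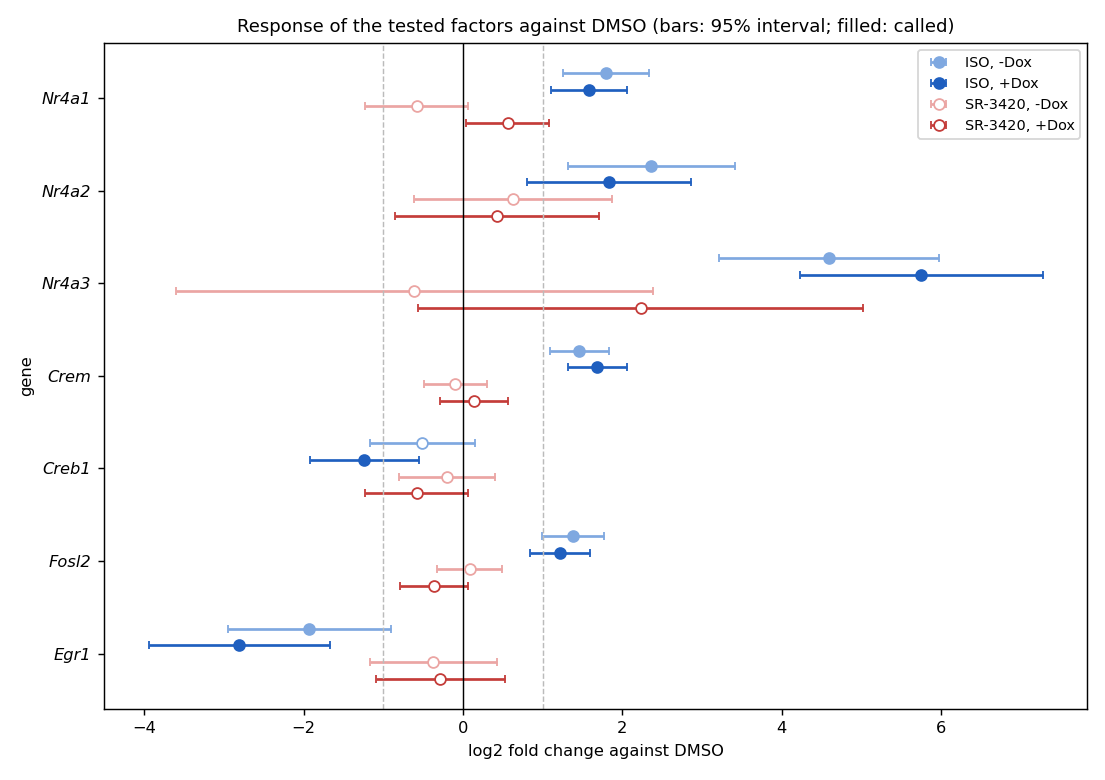
Log2 fold change against DMSO (horizontal axis) of the 7 tested factors for ISO (blue) and SR-3420 (red) without and with Dox, with 95% intervals, filled where called and with dashed lines at the fold change limit. All ISO points other than that of Creb1 without Dox are filled and lie beyond the limit, from -2.81 for Egr1 to 5.75 for Nr4a3 with Dox, and no SR-3420 point is filled.

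Nr4a1 came nearest to a response to the ligand. It gave 26, 31 and 22 counts with SR-3420 without Dox and 61, 54 and 39 with SR-3420 and Dox, or 16.8 ± 1.51 and 48.8 ± 8.49 CPM (n = 3, SD). Its SR-3420 libraries lay within the DMSO range without Dox (14.96 to 31.5 CPM) and with Dox overlapped it only through SR-3420 replicate 3, at 38.95 CPM, under the highest DMSO value of 43.8 CPM. The log2 change was -0.58 (95% interval -1.23 to 0.07, edgeR adjusted p 0.637) without Dox and 0.56 (0.04 to 1.09, edgeR adjusted p 0.181) with Dox. With Dox it was 0.48 without SR-3420 with Dox replicate 1, 0.29 without DMSO with Dox replicate 2 and 0.999 (edgeR adjusted p 0.0415) without DMSO with Dox replicate 1, just under the fold change limit.

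The other factors gave these values with SR-3420. Nr4a2 had 11, 5 and 5 counts without Dox, against 5, 1 and 6 with it, a log2 change of 0.63 (95% interval -0.61 to 1.87) and 0.43 (-0.85 to 1.71). Nr4a3 had 1, 0 and 1 counts without Dox, against 1, 1 and 3 with it, where DMSO had 0, 0 and 1. With Dox its ratio of summed counts was 6.24 (95% counting interval 0.699 to 295, from 5 and 1 counts), so neither an increase nor its absence was detectable at this depth. Crem had 68, 100 and 56 counts without Dox, against 49, 44 and 38 with it. Its log2 change was -0.09 (95% interval -0.49 to 0.30) and 0.14 (-0.29 to 0.57), intervals that end short of the fold change limit and of the 1.46 and 1.69 seen with ISO. Fosl2, with 115, 108 and 75 counts without Dox, against 72, 39 and 35 with it, had log2 changes of 0.09 (-0.32 to 0.50) and -0.36 (-0.79 to 0.07), the latter -0.69 without SR-3420 with Dox replicate 1. Its intervals likewise end short of its ISO values.

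Creb1 gave 31, 53 and 26 counts with SR-3420 without Dox and 19, 20 and 19 with Dox, with log2 changes of -0.20 (95% interval -0.80 to 0.41) and -0.58 (-1.23 to 0.06). Egr1 gave 28, 13 and 23 counts without Dox, against 20, 12 and 11 with it, with log2 changes of -0.37 (-1.16 to 0.42) and -0.28 (-1.09 to 0.53). Neither gene passed the test in either state (edgeR adjusted p 0.277 to 0.925). Fos had 2, 5 and 11 counts without Dox, against 8, 7 and 4 with it, and its ratio of summed counts with Dox was 1.83 (95% counting interval 0.855 to 4.02). Fosb had 1, 1 and 0 counts without Dox, against 0, 1 and 0 with it. The adipocyte marker sum was higher with SR-3420 than in DMSO in both states, 3320 to 3640 against 2300 to 2810 CPM without Dox and 3840 to 5060 against 2710 to 3220 CPM with Dox. Of its 6 genes 1 (Fabp4, log2 change 1.87) was called higher and 0 lower without Dox, and 2 (Fabp4, 2.82, and Cidec, 1.08) higher and 0 lower with Dox, while Pparg had -0.47 and -0.07. Fabp4 was counted over 73 bases, so its calls rest on a short part of the gene. Of the 6 brown adipocyte markers tested, 0 were called without Dox and 1 with Dox (Ppara, 2.72), and of the 5 preadipocyte and fibroblast markers 0 in either state. The part of these genes in the values of the factors was not tested.

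Without SR-3420 with Dox replicate 1 the log2 changes against DMSO with Dox were 0.31 for Nr4a2, 2.54 for Nr4a3, 0.12 for Crem, -0.51 for Creb1 and -0.53 for Egr1 (0.43, 2.23, 0.14, -0.58 and -0.28 with it). As with that library, 0 of the 7 factors were called, where 2.5% of all tested genes were. The value of Nr4a3 moved more when other libraries with Dox were left out. It was 4.02 without DMSO replicate 3, 1.39 without DMSO replicate 1 and 1.525 without SR-3420 replicate 3, and was not called in any of these fits.

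ISO and SR-3420, given at 10 nM and 20 µM for the same 3 h, were then compared with each other. These comparisons share the ISO libraries with those against DMSO. In each state 6 of 7 tested factors were called. Of the factors other than Nr4a2, Nr4a3 and Egr1, the genes Nr4a1, Crem and Fosl2 were called in each state and Creb1 in neither. Over all tested genes 10.6% were called without Dox (4.95% higher and 5.65% lower with ISO) and 6.85% with Dox (3.49% and 3.36%). Nr4a1, Nr4a2, Nr4a3, Crem and Fosl2 were higher and Egr1 was lower with ISO in both states, and in each of these calls the ISO and SR-3420 libraries did not overlap, as they did not upward for 20.8% and downward for 21.7% of all tested genes without Dox (17.1% and 17.4% with Dox). Without Dox the log2 differences were 2.38 (SE 0.26) for Nr4a1, 1.73 (SE 0.41) for Nr4a2, 5.20 (SE 0.64) for Nr4a3, 1.56 (SE 0.17, edgeR adjusted p 3.78e-08) for Crem and 1.30 (SE 0.18) for Fosl2. With Dox they were 1.03 (SE 0.23), 1.40 (SE 0.49), 3.52 (SE 0.55), 1.55 (SE 0.18, edgeR adjusted p 3.31e-07) and 1.59 (SE 0.20) in the same order. Leaving out SR-3420 with Dox replicate 1 gave 1.12, 1.54, 3.23, 1.59 and 1.93, of which that of Nr4a2 was no longer called (edgeR adjusted p 0.0728).

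Marker genes differed between ISO and SR-3420 as well. Without Dox, of 6 adipocyte markers Pparg was called higher with ISO (log2 difference 1.02) and Cidec (-1.23), Plin1 (-1.08) and Fabp4 (-1.41) lower. Of 6 brown adipocyte markers Ucp1 (5.92) and Prdm16 (1.08) were higher and Ppara (-1.68) lower, and of 5 preadipocyte and fibroblast markers Ly6a was higher (2.61) and Pdgfrb lower (-1.002). With Dox, Pparg (1.11), Ucp1 (6.69), Prdm16 (1.33) and Ly6a (2.21) were higher and none of these genes was lower. Ucp1 and Ly6a were tested only because they are high with ISO. The part of all these marker genes in the differences of the factors was not tested.

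Several of these calls were near the limits. Egr1 differed by -1.56 (SE 0.49, edgeR adjusted p 0.016) without Dox, and its adjusted p was 0.0614 to 0.0843 when ISO replicate 2 or SR-3420 replicates 1 or 3 without Dox were left out. With Dox it differed by -2.53 (SE 0.59, edgeR adjusted p 0.00209), or -3.82 without ISO with Dox replicate 1 and -2.26 when SR-3420 with Dox replicate 1 was left out. Nr4a1 with Dox fell under the fold change limit when replicate 1 of ISO with Dox (0.92) or replicate 3 of SR-3420 with Dox (0.89) was left out. Nr4a2 with Dox (edgeR adjusted p 0.04) was not called by DESeq2 (1.43, adjusted p 0.12), nor without replicates 2 or 3 of ISO with Dox, or 1 or 2 of SR-3420 with Dox (edgeR adjusted p 0.0654 to 0.182), nor without a filter on low counts (edgeR adjusted p 0.0504). The Nr4a3 difference with Dox was 4.23 without SR-3420 with Dox replicate 3. Creb1 was not called in either state (-0.31 and -0.66, edgeR adjusted p 0.474 and 0.209, with the latter -0.71 when SR-3420 with Dox replicate 1 was left out), although with Dox all 3 ISO libraries were below all SR-3420 libraries. The same held for the untested Fos with Dox, at 2.89 to 3.94 CPM with ISO and 3.99 to 7.03 CPM with SR-3420.

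Cells with and without Dox, the states meant to differ in ABHD5, were compared last. In DMSO 0 of the 7 tested factors were called by edgeR, 0 had an unadjusted p under 0.05 and 0 were called by DESeq2, where 0.894% of all tested genes were called by edgeR. Crem had the smallest p, with a log2 change of -0.42 (SE 0.21, p 0.0515, edgeR adjusted p 0.513). The interferon-stimulated genes moved in the same comparison, with 14 of 15 tested called higher with Dox at a median log2 change of 3.48. The interval for Fosl2 (-0.42 to 0.42) was within the fold change limit, as were those for Nr4a1 (-0.20 to 0.99), Crem (-0.84 to 0.00), Creb1 (-0.56 to 0.67) and Egr1 (-0.89 to 0.69). Those of Nr4a2 (-1.43 to 1.39) and Nr4a3 (-4.67 to 2.35) were not.

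**Figure D3:**
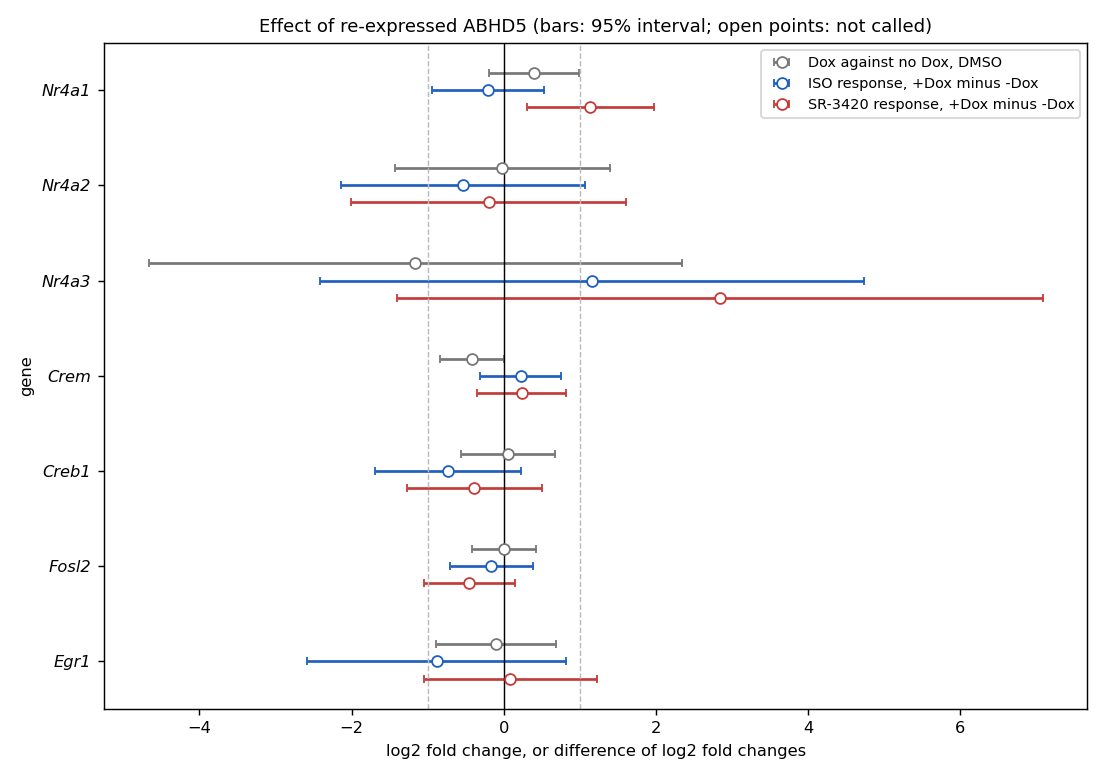
Log2 fold change of Dox against no Dox in DMSO (grey) and the difference of the log2 responses to ISO (blue) and SR-3420 (red) with and without Dox (horizontal axis) for the 7 tested factors, with 95% intervals. All points are open, meaning that none was called. The interval of Nr4a1 for SR-3420, 0.31 to 1.97, is the one that lies furthest from 0.

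Whether a response depended on Dox was tested as an interaction, the log2 change with Dox less that without. For ISO 0 of 7 tested factors were called by edgeR, 0 had an unadjusted p under 0.05 and 0 were called by DESeq2, where 1.31% of all tested genes were called by edgeR. The difference was -0.21 (95% interval -0.95 to 0.53) for Nr4a1, 0.23 (-0.31 to 0.76) for Crem and -0.16 (-0.71 to 0.38) for Fosl2, so that for these 3 genes a difference beyond the fold change limit lay outside the interval. For Nr4a2 (-2.13 to 1.07), Nr4a3 (-2.42 to 4.74) and Egr1 (-2.58 to 0.82) it lay inside. For SR-3420 0 of 7 factors were called by edgeR, 1 had an unadjusted p under 0.05 and 0 were called by DESeq2, where 0.59% of all tested genes were called by edgeR. That factor was Nr4a1, with a difference of 1.14 (SE 0.41, 95% interval 0.31 to 1.97, p 0.00874, edgeR adjusted p 0.208). In CPM it was lower than the DMSO mean in SR-3420 without Dox (16.8 against 24.4) and higher with Dox (48.8 against 31.0). It did not pass over all genes in any alternative (edgeR or DESeq2 adjusted p 0.0543 to 0.434), and leaving out SR-3420 with Dox replicate 1 gave 1.07.

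Ordered by level per kilobase counted, Egr1 stood highest in DMSO without Dox at 25.6 ± 9.20 CPM per kilobase (n = 3, SD). Fosl2 (4.75 ± 0.709), Nr4a1 (4.45 ± 1.55) and Fos (3.67 ± 4.07) followed within their spread of each other. Crem (0.885 ± 0.286), Creb1 (0.484 ± 0.182), Nr4a2 (0.406 ± 0.298) and Fosb (0.303 ± 0.524) came next, neighbours that again did not differ beyond their spread, and Nr4a3 (0.0224 ± 0.0388) was lowest. With ISO without Dox the order on the same scale was led by Nr4a1 at 16.1 ± 3.98 and Fosl2 at 12.6 ± 0.705 CPM per kilobase, which did not differ beyond their spread. Egr1 (6.75 ± 3.43), Crem (2.46 ± 0.137) and Nr4a2 (2.01 ± 0.294) followed, and then Fos (1.71 ± 1.22) and Fosb (1.09 ± 0.991), while Nr4a3 reached 0.644 ± 0.125 and Creb1 at 0.351 ± 0.0152 was lowest. The order depends on the length used, and the counted regions of Egr1, Fos and Fosb are short. Per kilobase of annotated exon, a scale added after seeing the data, Egr1 in DMSO without Dox (5.59 ± 2.01 CPM per kilobase) stood under Fosl2 (10 ± 1.5), Nr4a1 (9.85 ± 3.43) and Crem (8.46 ± 2.73), and Fosb was lowest in both groups. Nr4a1 and Fosl2 led with ISO on this scale too, at 35.7 ± 8.81 and 26.6 ± 1.49. Per kilobase of gene span Egr1 again stood highest in DMSO, at 4.62 ± 1.66.

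Other genes of the same routes were examined in lists, chosen with earlier results of these data known. Of 15 AP-1 and ATF relatives 12 were in the table and 11 were tested, among them Fosl1 and genes of the ATF, BATF and small MAF groups. The JUN genes Jun, Junb and Jund were not analysed here. With ISO 2 rose and 0 fell without Dox (Fosl1 and Batf3) and 2 rose and 0 fell with Dox (Atf3 and Fosl1), where 10.9% and 13.1% of all tested genes were called. With SR-3420 0 moved without Dox and 1 rose (Atf3) with Dox, where 0.265% and 3.1% were called. No DMSO library reached the count limit for Batf3 or Atf3, so both were tested only because they are high with a treatment. Of the other 9, 1 (Fosl1) rose with ISO in each state and 0 moved with SR-3420. The median log2 change of the list was 0.09 and -0.01 with ISO and 0.10 and 0.22 with SR-3420, without and with Dox. Fosl1, which encodes the FOS protein FRA1 and overlaps Ccdc85b on the other strand, rose from 9.58 ± 2.49 to 114 ± 45.6 CPM without Dox and from 8.29 ± 1.80 to 134.7 ± 36.2 CPM with Dox (n = 3, SD), log2 changes of 3.51 (SE 0.33) and 3.95 (SE 0.31, edgeR adjusted p 4.93e-11). Atf3, a stress-induced bZIP factor, stood at 3.07 ± 2.05 CPM in DMSO with Dox, 11.2 ± 3.64 CPM with ISO and 32.6 ± 12.6 CPM with SR-3420 (n = 3, SD). Its log2 change was 3.37 (SE 0.44, edgeR adjusted p 3.33e-06) with SR-3420 and Dox, and with ISO it was lower than with SR-3420 by a log2 difference of -1.52 (SE 0.35, edgeR adjusted p 0.00221). These were 3.31 and -1.44 when SR-3420 with Dox replicate 1 was left out, and both stayed called. Batf3, a BATF family factor, had a log2 change of 1.95 (SE 0.61, edgeR adjusted p 0.0152) with ISO without Dox, a call lost without DMSO replicates 1 or 3 or ISO replicate 1 without Dox (edgeR adjusted p 0.0532 to 0.12).

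Of 9 relatives and coactivators of CREB, 7 were tested. With ISO 1 rose and 0 fell without Dox and 0 moved with Dox, where 10.9% and 13.1% of all tested genes were called, so the count without Dox was near the background. With SR-3420 0 moved in either state. The gene that rose was Crtc3, a CREB coactivator that the SIK kinases hold in the cytoplasm, which went from 19.5 ± 3.998 to 41.9 ± 7.10 CPM (n = 3, SD), a log2 change of 1.07 (SE 0.25, edgeR adjusted p 0.00159). It fell under the fold change limit with library totals only (0.90) and without DMSO replicate 2 (0.95) or ISO replicate 3 (0.99) without Dox. Of 11 EGR relatives and serum response factors, 8 were tested. Only Nab2 was called in any comparison with DMSO, 1 of 8 with ISO and Dox, where 13.1% of all tested genes were. Nab2, a co-repressor that binds EGR proteins, fell with ISO and Dox from 16.8 ± 2.92 to 3.74 ± 1.32 CPM (n = 3, SD), a log2 change of -2.17 (SE 0.40, edgeR adjusted p 9.37e-05). It stood at 10.5 ± 1.46 in DMSO and 8.76 ± 3.30 CPM with ISO without Dox. Crtc3 and Nab2 overlap genes on the other strand.

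**Figure D4:**
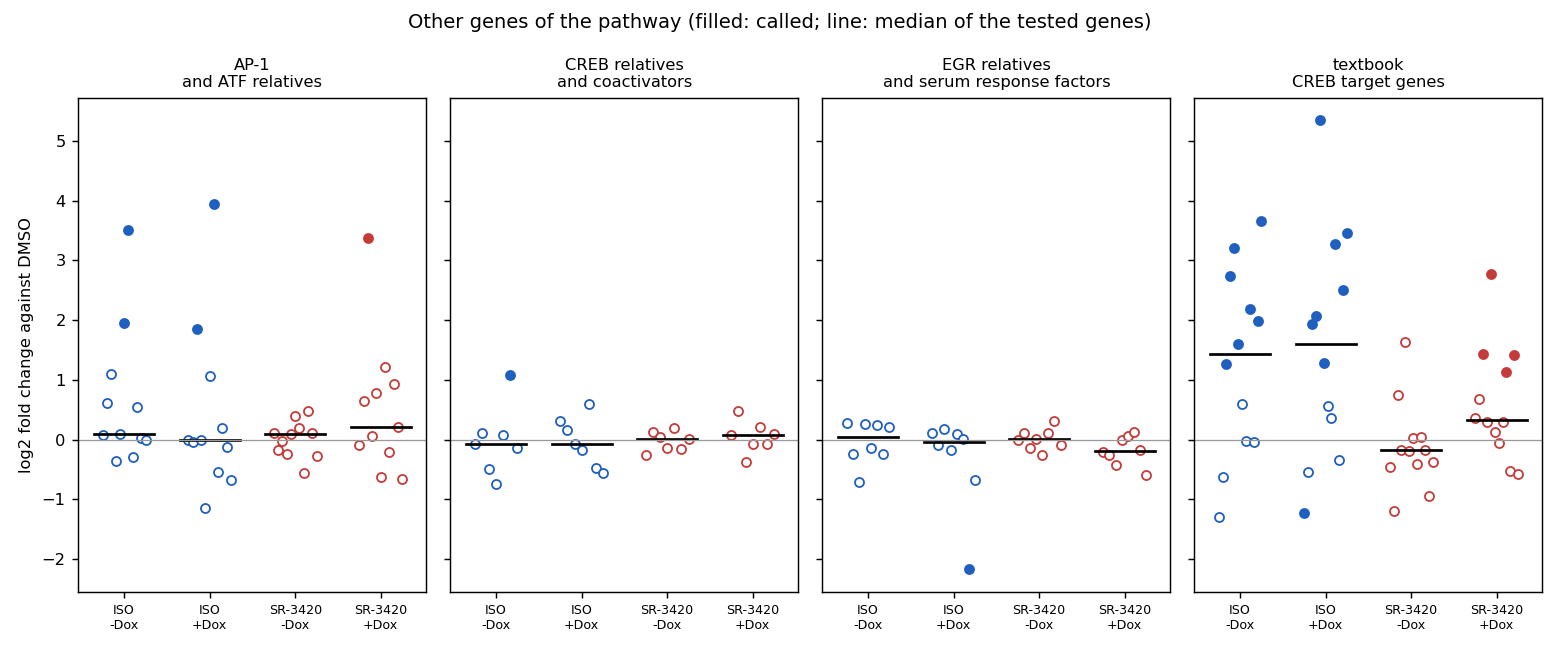
Log2 fold change against DMSO (vertical axis) of the tested genes of 4 lists, as points by treatment and Dox state, filled where called, with a line at the list's median. The filled points of the CREB target list lie at 1.27 or more with ISO without Dox, and the medians of the other lists stay between -0.20 and 0.22.

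Of 14 textbook CREB target genes other than the 9 factors, 12 were tested. With ISO 7 rose and 0 fell without Dox, and 7 rose and 1 (Dusp1) fell with Dox, against background rates of 5.81% and 6.22% of tested genes called higher. Dusp1 reached the count limit in 0 ISO libraries, so it was tested only through the other treatments, where it is higher. With SR-3420 0 moved without Dox and 4 rose with Dox (Irs2, Ppargc1a, Sik1 and Pck1), where 2.1% of tested genes were called higher. Leaving out SR-3420 with Dox replicate 1 left 3 of these (Irs2, Sik1 and Pck1). The median log2 change was 1.43 and 1.61 with ISO and -0.18 and 0.33 with SR-3420, without and with Dox. Vdr, the vitamin D receptor, rose with ISO from 22.8 ± 6.68 to 283.7 ± 28.4 CPM without Dox and from 30.8 ± 10.4 to 316.8 ± 11.0 CPM with Dox (n = 3, SD). Nfil3, a bZIP repressor, rose by log2 changes of 2.73 (SE 0.17) and 2.07 (SE 0.17, edgeR adjusted p 1.21e-10). With SR-3420 and Dox, Vdr stood at 19.4 ± 6.40 and Nfil3 at 43.2 ± 8.02 CPM, and neither was called (22.4 and 39.4 CPM when SR-3420 with Dox replicate 1 was left out). Pck1, the enzyme of glyceroneogenesis, stood at 6.66 ± 3.49 CPM in DMSO, 310.3 ± 68.3 CPM with ISO and 52.0 ± 12.7 CPM with SR-3420 in cells with Dox (n = 3, SD; 50.3 CPM when SR-3420 with Dox replicate 1 was left out). Ppargc1a, the coactivator PGC-1α, had a log2 change of 3.28 (SE 0.29) with ISO and 1.14 (SE 0.31, edgeR adjusted p 0.0166) with SR-3420 in cells with Dox. The SR-3420 call of Ppargc1a was lost without SR-3420 with Dox replicate 1 (0.67, edgeR adjusted p 0.249), without DMSO with Dox replicates 1 or 2, with library totals only and by DESeq2.

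Across the 18 libraries the log2 CPM of the tested factors that rose with ISO went together, with Pearson's r from 0.61 (Nr4a1 with Nr4a2) to 0.93 (Nr4a3 with Crem), and that of Egr1 went against them (-0.64 to -0.82). These values describe libraries that share 6 treatments and are not independent samples. By the same measure, the genes outside the list most like each factor were Sdc4 and B4galt1 for Nr4a1 (r = 0.961 and 0.931), Dos and Prkar2a for Nr4a2 (0.900 and 0.898), and Mtor and Kcng3 for Nr4a3 (0.964 and 0.963). For Crem they were Pde10a and Baz1b (both 0.956), for Creb1 Wtip and Asic1 (0.855 and 0.809), for Fosl2 Aste1 and Slc25a28 (0.961 and 0.953), and for Egr1 Slc9a5 and Mmaa (0.934 and 0.926). Among these, Dos, Prkar2a, Mtor, Pde10a and Aste1 overlap annotated genes on the other strand.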

How the data were processed

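Per the study's methods the authors mapped RNA-seq reads with STAR 2.4.2a (mm9), kept 1 read per position and length with HOMER, and summarised genes by iRNA-seq. They deposited raw whole-number counts, not stated to use strand, beside a counted length for every gene, and the counts were used as deposited. The authors describe independent experiments, but the labels do not say which cultures the replicates came from, so p-values measure only the spread between these libraries.

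Groups came from sample titles. Library totals of 689910 to 1956565 counts set the precision, and counting intervals (exact, 95%) cover counting error only. Genes were kept by filterByExpr (minimum count 10), scaled by TMM (factors 0.768 to 1.13) and fitted with edgeR 4.0.16 (quasi-likelihood, 1 mean per group, R 4.3.3). Tests were two-sided with Benjamini-Hochberg adjustment over 10178 genes in each of 9 comparisons, and a call needed an adjusted p no higher than 0.05 and a log2 fold change of 1 or more in size. Standard errors follow from the F statistic. Levels are CPM on TMM-scaled totals.

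The 9 factors and the lists were chosen with earlier results of these data known. All factors are named. From each list up to 4 genes called with ISO or SR-3420 are named by smallest p, and for each tested factor the 2 genes most correlated with it over the libraries (log2 CPM, prior count 2). Dusp1, Irs2 and Sik1 were named after their values were seen. Motifs were searched in the mm9 genome around the deposited starts of 17672 genes. The fit was tested on simulated data. Alternatives were other scalings and filters, DESeq2 1.42.0, a replicate block, fewer groups, no fold change limit and each library left out. Same-numbered libraries of different groups had residuals that correlated at 0.039 to 0.277, above 0.1 in 36 of 45 pairs.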

Additional observations from a re-analysis of the deposited data

Results flagged for a closer look

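The ISO response of Crtc3, a coactivator of CREB, differed between cells with and without Dox. Its level went from 19.5 ± 3.998 CPM in DMSO to 41.9 ± 7.10 CPM with ISO without Dox, and from 31.8 ± 4.03 to 22.2 ± 5.40 CPM with Dox (n = 3, SD). The log2 change of 1.07 without Dox was called and the -0.48 with Dox was not. The difference between both responses was -1.56 (SE 0.35, edgeR adjusted p 0.0114), and over 20 alternatives it ranged from -1.78 to -1.40 with adjusted p from 0.0023 to 0.0373. Crtc3 overlaps the gene model Gm15880 on the other strand, and the part of that model in the counts was not tested.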

How the results depend on the processing

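None of the calls of the 9 factors changed direction in any alternative, and the replicate block changed no call (6 of 7 factors called for ISO without Dox and 7 of 7 with Dox, as without it). Counts of called factors moved by over 1.5 times only when at least 10 counts were required in every library, which left 4 factors in the test (Nr4a1, Crem, Creb1 and Fosl2) and gave 3, 4, 3 and 3 calls for ISO against DMSO without and with Dox and ISO against SR-3420 without and with Dox. Elsewhere at most 1 call was lost or missing, for ISO against DMSO with Dox (6, with only the groups of the comparison or without DMSO with Dox replicate 3) and for ISO against SR-3420 without Dox (5, in 3 fits with 1 library left out) and with Dox (5, with no filter, only the groups compared, DESeq2 and each of 6 libraries left out). With only the groups compared, the missing call with Dox was that of Nr4a2, which then had too few counts to be tested. Of the factors' log2 fold changes, 465 fits with 1 library left out and 394 other fits kept direction and call, 12 lost the call in the cases named in the report, and 37 changed sign, all of them uncalled. The largest shifts were of Nr4a3, which turned from -0.61 to 2.35 for SR-3420 without Dox, -1.16 to 1.80 for Dox in DMSO, 1.16 to -1.80 for the ISO interaction and 2.84 to -0.12 for the SR-3420 interaction, each without DMSO without Dox replicate 3. With library totals only these were Crem for SR-3420 with Dox (-0.061), Creb1 (-0.025) and Fosl2 (-0.09) for Dox in DMSO, and Egr1 for the SR-3420 interaction (-0.068). For Fosl2 under Dox in DMSO, RLE factors gave -0.004, the replicate block -0.008, the 2 groups alone 0 and DESeq2 -0.017. Library totals only also moved the CPM of Nr4a3 and Fosl2 with ISO and Dox to 18.3 and 130.5 and that of Crem with SR-3420 and Dox to 38.0.

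Sign changes with 1 library left out had these ranges. For SR-3420 without Dox they were -1.26 to 2.35 for Nr4a3, -0.28 to 0.21 for Crem and -0.48 to 0.044 for Creb1, and with Dox -0.002 to 0.87 for Nr4a2. For Dox in DMSO they were -0.039 to 0.67 for Nr4a1, -0.43 to 0.54 for Nr4a2, -2.96 to 1.80 for Nr4a3, -0.28 to 0.43 for Creb1, -0.33 to 0.20 for Fosl2 and -0.33 to 0.16 for Egr1. For the ISO interaction they were -0.48 to 0.23 for Nr4a1, -1.80 to 2.97 for Nr4a3, -0.082 to 0.38 for Crem and -0.36 to 0.17 for Fosl2. For the SR-3420 interaction they were -0.76 to 0.24 for Nr4a2, -0.12 to 4.63 for Nr4a3, -0.078 to 0.42 for Crem and -0.23 to 0.32 for Egr1. The causes were not tested. Among the called values of named pathway genes, 210 and 203 fits (with 1 library left out and others) kept the call and 10 and 4 lost it. Levels per kilobase moved beyond 1 SD in 22 of the values over exon length or gene span and not in 14, which changes the order of genes as given in the report. The counts limit Fos, Fosb, Nr4a2 and Nr4a3 most.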
